A study of Mus musculus with 12 samples.

Results

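The proteasome is the large barrel-shaped protease that degrades proteins tagged with ubiquitin, and the transcripts of its subunits were followed through sorted mouse blood cells. Members were the genes whose symbol is Psma, Psmb, Psmc, Psmd or Psme followed by digits only, measured by a probe set annotated to that gene alone, and Psmb8 and Psmb9 were left out by the rule. This gave 40 genes of the 18193 measured. Of these, 8 encode alpha and 9 encode beta subunits of the core particle, 9 the base and 8 the lid of the regulatory particle, 3 chaperones that assemble the base, and 3 activators. Psme2 is not analysed here, because no probe set was named for it alone. Each gene is represented by its brightest probe set.

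In the core particle, stacked rings of beta subunits carry the protease sites, and outer rings of alpha subunits form the gate. The regulatory particle binds ubiquitin chains, removes them in its lid and unfolds the substrate with the ATPase ring of its base. Cells exposed to interferon, and many lymphocytes, exchange the standard catalytic subunits for immune forms such as Psmb10, and blood stem cells are known for slow protein synthesis and for poor tolerance of misfolded protein.

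Affymetrix arrays measured the RNA of cells from C57Bl/6 mice, which were 10 to 12 weeks old and are not labelled as treated or genetically altered. Haematopoietic stem cells (HSC, 3 arrays) were lineage-negative, Kit-positive and Sca1-positive marrow cells with CD150 and without Flk2/Flt3. Multipotent progenitors (MPP, 3 arrays) shared the first of these markers but lacked CD150 and carried Flk2/Flt3. PreMegE cells (4 arrays), marrow progenitors of platelet-forming and red cells, were lineage-negative and Kit-positive with CD150, without Sca1, CD105 and CD41. CD4+ T cells (2 arrays) came from spleen and lacked CD8, B220 and NK1.1. The PreMegE and CD4+ T cell arrays were taken over from 2 earlier studies, so study and population cannot be told apart in comparisons across these sets. HSC and MPP samples are described as separate sorts, but nothing says that replicates came from separate animals, and p-values measure only the spread between these samples, which may be technical. In sorted bulk samples, fewer cells of a type and less RNA per cell cannot be told apart.

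Array medians lay between 14.4 and 15.6 intensity units, and replicate arrays correlated across genes at Pearson r of 0.984 or more. Summed intensities of the markers of each labelled population were highest in that population, though single genes of the lists went the other way. Itga2b, a PreMegE marker, was at 10.45 to 10.63 log2 units in HSC and 8.14 to 8.82 in PreMegE. Slamf1, an HSC marker, was at 7.25 and 7.07 in CD4+ T cells and 6.67 to 7.05 in HSC. Satb1, an MPP marker, was at 11.14 and 11.20 in CD4+ T cells and 9.77 to 9.82 in MPP. Markers of other cells were present as well. The 6 neutrophil markers summed to between 423 and 4055 in HSC, with HSC replicate 2 the highest, to 119 to 273 in MPP, 603 to 2376 in PreMegE and 81.5 to 133 in CD4+ T cells. The 4 measured B cell markers, mainly Ighm, summed to 5230 and 6044 in CD4+ T cells and to at most 1777 elsewhere. Klrd1, an NK cell receptor, was at 8.83 and 8.04 log2 units in CD4+ T cells and at most at 4.75 elsewhere. Of the other NK cell markers, Gzma was at 5.07 and 4.58 there and at most at 4.24 elsewhere. Ncr1 was not raised, at 3.45 and 3.65 there and at most at 3.95 elsewhere. Alas2, of red cell heme synthesis, was at 7.42 and 9.35 in CD4+ T cells and at most at 5.53 elsewhere. Of the other red cell markers, Slc4a1 was at 6.13 and 8.54 there and at most at 6.94 elsewhere. Hemgn went the other way, at 5.15 and 5.31 in CD4+ T cells and 9.25 to 11.23 elsewhere. Immediate early genes, which respond to handling, summed to 9462 to 13586 in HSC, 16087 to 17660 in MPP, 555 to 873 in PreMegE and 2091 to 3184 in CD4+ T cells. For beta-actin, the excess of the 3′ over the 5′ control probe set, which grows as RNA breaks down or is copied less fully, was 2.35 to 2.77 in HSC and MPP, 3.49 to 4.65 in PreMegE and 0.99 to 1.13 in CD4+ T cells on the log2 scale. For Gapdh the same measure was 3.86 to 4.14 in HSC, 3.62 to 3.88 in MPP, 3.12 to 4.39 in PreMegE and 2.55 to 2.66 in CD4+ T cells. HSC replicates 2 and 3 stood apart in sex-linked genes, with Xist at 2.45 and 2.59 log2 units against 10.91 to 12.44 on the other 10 arrays. The Y-linked Eif2s3y was at 7.46 and 8.47 against 2.31 to 2.71, and Kdm5d at 6.02 and 5.68 against 2.24 to 2.76. Uty, also Y-linked, was at 3.23 and 4.43 against 2.43 to 3.39. Sex-linked expression was thus mixed within HSC, and this enters every comparison with HSC. Hspa1a, a heat shock chaperone, was at 9.34 and 9.20 on the same arrays, at 3.92 in HSC replicate 1 and at most at 6.99 elsewhere. Hspa1b was at 11.15 and 11.56 on them, 5.49 in HSC replicate 1 and at most 10.44 elsewhere. The other heat shock genes listed did not share this pattern. Dnajb1 was at 12.56, 12.59 and 12.59 in HSC. Hsph1 was at 9.39, 9.36 and 10.13 in HSC and highest in CD4+ T cells, at 10.66 and 10.95. The part of these differences in the results below was not tested, and HSC replicates 2 and 3 were also left out together.

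The 250 bases before the transcription start are shown for 6 genes. They are examples of members whose arrays in 1 population lay apart from every other array on the brightest probe set. Other members, named below, also met this. Psmb5, Psmd2 and Psmd13 were lowest in PreMegE, and Psmb10, Psmd4 and Psme1 were highest in CD4+ T cells. Sequences are from RefSeq, mouse build GRCm38.p6, 5′ to 3′ on the strand of the gene, and capitals mark matches to the motifs searched. They lie upstream of the annotated transcript, at chr14:54617996-54618245 (minus strand), chr16:20651402-20651651 (plus strand), chr7:140882144-140882393 (plus strand), chr8:105938393-105938642 (minus strand), chr3:95042615-95042864 (minus strand) and chr14:55578244-55578493 (plus strand).
Psmb5: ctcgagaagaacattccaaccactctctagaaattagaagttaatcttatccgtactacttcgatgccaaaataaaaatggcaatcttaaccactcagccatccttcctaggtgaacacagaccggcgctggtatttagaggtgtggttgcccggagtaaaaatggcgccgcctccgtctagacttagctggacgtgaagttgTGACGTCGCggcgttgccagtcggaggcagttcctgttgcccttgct
Psmd2: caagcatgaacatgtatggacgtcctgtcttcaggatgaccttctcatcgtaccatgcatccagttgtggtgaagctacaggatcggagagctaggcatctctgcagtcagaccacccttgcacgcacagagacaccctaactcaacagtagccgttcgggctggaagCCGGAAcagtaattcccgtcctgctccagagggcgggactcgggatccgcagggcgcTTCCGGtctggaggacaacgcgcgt
Psmd13: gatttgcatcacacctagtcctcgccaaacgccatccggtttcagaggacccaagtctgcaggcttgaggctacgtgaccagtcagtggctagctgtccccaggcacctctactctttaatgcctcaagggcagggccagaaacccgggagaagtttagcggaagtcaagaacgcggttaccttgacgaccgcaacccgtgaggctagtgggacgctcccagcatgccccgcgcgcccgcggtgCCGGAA
Psmb10: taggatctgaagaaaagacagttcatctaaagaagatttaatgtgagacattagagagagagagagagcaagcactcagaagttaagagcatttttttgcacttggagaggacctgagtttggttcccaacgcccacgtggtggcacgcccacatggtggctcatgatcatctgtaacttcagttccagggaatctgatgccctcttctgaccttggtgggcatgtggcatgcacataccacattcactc
Psmd4: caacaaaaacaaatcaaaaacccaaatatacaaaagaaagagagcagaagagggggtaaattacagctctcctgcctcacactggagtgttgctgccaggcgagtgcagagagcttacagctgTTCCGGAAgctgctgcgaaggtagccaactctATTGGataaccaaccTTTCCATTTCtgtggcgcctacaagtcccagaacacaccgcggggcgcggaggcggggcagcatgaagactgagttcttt
Psme1: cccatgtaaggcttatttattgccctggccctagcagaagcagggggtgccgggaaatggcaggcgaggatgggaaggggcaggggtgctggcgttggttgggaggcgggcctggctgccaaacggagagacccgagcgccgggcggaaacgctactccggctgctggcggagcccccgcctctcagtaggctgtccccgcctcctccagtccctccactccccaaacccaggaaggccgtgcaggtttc
In Psmb5 the capitals match the letters searched for the antioxidant response element, from base -47 to base -39 before the start. Elements of this kind are bound by the Nfe2l1 and Nfe2l2 factors with small Maf partners, and binding here was not tested. In Psmd2 and Psmd13 they match the core of the ETS site, in Psmd13 at the last 6 bases before the start. The window of Psmd4 held a palindrome with overlapping ETS matches on both strands. Matches to the CCAAT box and the interferon-stimulated element followed. The windows of Psmb10 and Psme1 held none of the 5 motifs searched, which says only that these letters are not in these 250 bases.

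Motifs were searched on both strands in the windows of the 33 members found in the RefSeq table and in all 27025 windows of the same length. The ETS core CCGGAA occurred in 14 members (42.4%) against 12.2% of all windows. The CCAAT box, spelled CCAAT, occurred in 13 members (39.4%) against 34.5%, and the antioxidant response element TGACNNNGC in 5 (15.2%) against 10.1%. The 5 genes with the latter were Psmb5, Psmb6, Psmc6, Psmd12 and Psmd9. The interferon-stimulated element occurred in Psmb3, Psmd4 and Psmd9 (9.1%) against 3.04%, and the gamma-activated site TTCNNNGAA, which reads the same on both strands, in 0 members against 7.18%. These are matches of letters and were not tested as binding sites.

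Proteasome genes did not move as a block between the 4 populations. The moderated F test of limma found a difference among the populations for 30 of 40 members, or 75%, against 50.1% of all genes (Benjamini-Hochberg adjusted p under 0.05). The spread of the group means was widest for Psmb10, at 2.18 log2 units, and narrowest for Psmb11, at 0.16. All 6 genes of the base chaperones and activators differed, as did 6 of 8 alpha, 6 of 9 beta, 6 of 9 base and 6 of 8 lid genes. CD4+ T cells had the highest mean for 18 members and the lowest for 10, HSC the highest for 5 and the lowest for 16. MPP had the highest for 10 and the lowest for 1, and PreMegE the highest for 7 and the lowest for 13.

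**Figure D1:**
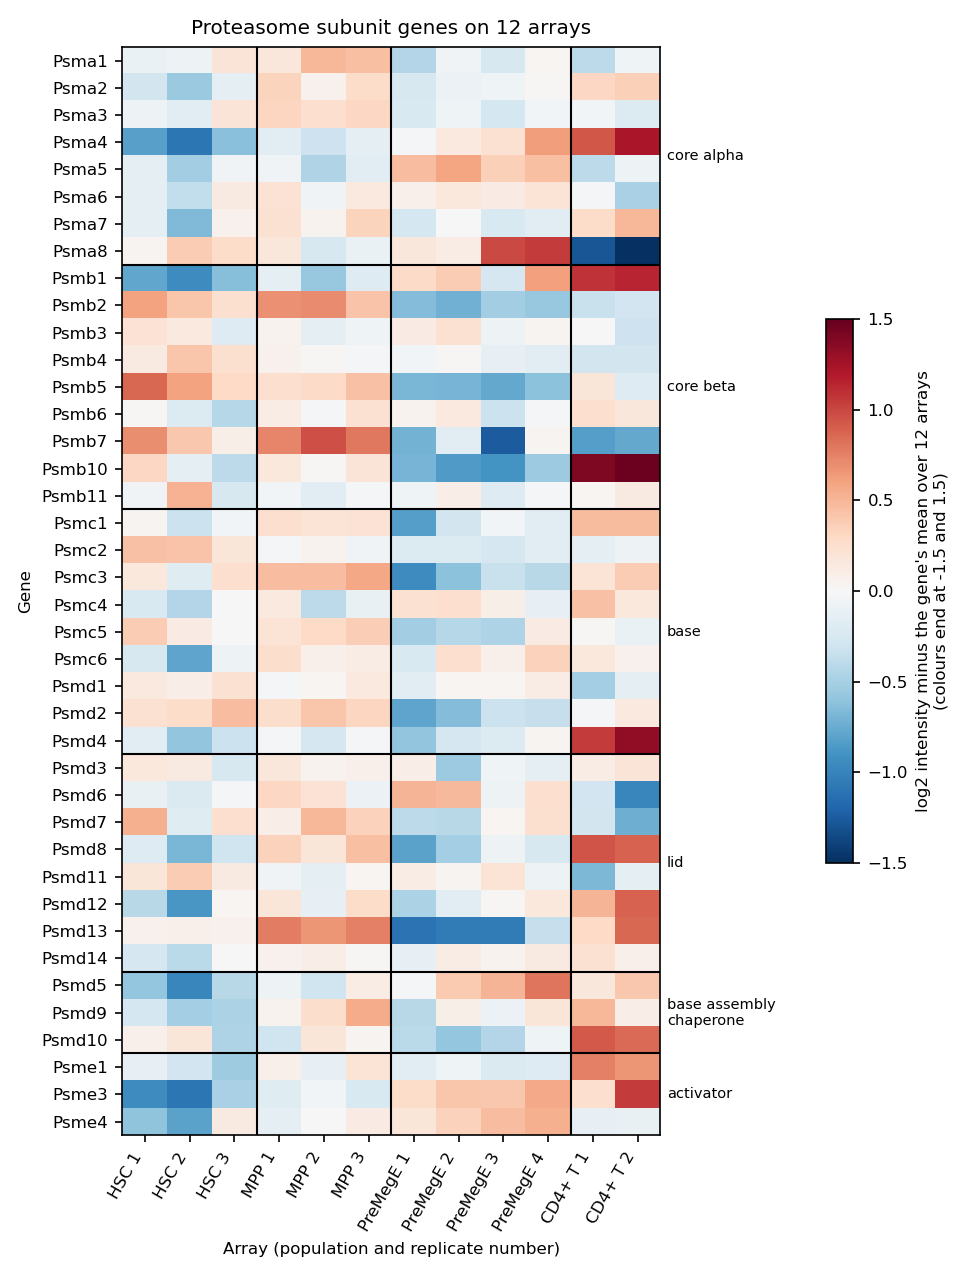
Colour gives the log2 intensity of each of the 40 genes (rows, grouped by class) on each of the 12 arrays (columns, grouped by population) minus the gene's mean over the arrays. The strongest blues and reds alternate between neighbouring rows, with Psmb10 red in CD4+ T cells and blue in PreMegE, and Psma8 blue in CD4+ T cells.

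Few members were called between MPP and HSC, and each of these calls ended without some single array. Of 40 genes, 6 were called higher and 0 lower in MPP, or 15%, where 11.3% of all genes were called (6.38% higher and 4.93% lower). At an unadjusted p under 0.05 in limma, 15 members were higher and 1 lower, where 12.5% of all genes were higher and 10.1% lower. The median difference was 0.27 against -0.03 over all genes, and 32 members had a positive difference against 45.8% of all genes. The median was 0.15 under quantile normalisation and 0.17 under cyclic loess. Of the 40 members, 0 were called and 2-fold or more apart, where 4.70% of all genes were. The 6 were Psma2, Psma4, Psmd8, Psmd13, Psmd9 and Psme3. The count was 2 without HSC replicate 1, 0 without HSC replicate 2, and 1, 2 and 0 without MPP replicates 1, 2 and 3. It was 4 without PreMegE replicate 2. Calls over all genes, either way, also fell, from 2058 to 1653, 1477, 1401, 1480, 1280 and 1895 without these arrays in turn. Under quantile normalisation the count was 2, where 2188 of all genes were called either way. With HSC replicate 1 as the only HSC array 0 were called, and the median was 0.16.

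PreMegE cells had a mixed pattern against HSC, with core subunits in both directions and base subunits called lower. Called higher were 6 members and lower 9, together 37.5%, where 28.9% of all genes were called (11.9% higher and 17.0% lower). The median difference was 0.00 against -0.01 over all genes. Of the 40 members, 6 were called and 2-fold or more apart, where 11.5% of all genes were. The catalytic genes Psmb5 and Psmb7 and the ATPase genes Psmc2, Psmc3 and Psmc5 were lower. Activators Psme3 and Psme4 and the chaperone gene Psmd5 were higher. Against MPP, 4 members were higher and 12 lower, or 40.0%, beside 33.0% of all genes (13.5% higher and 19.5% lower), with a median of -0.20 against 0.02. Here 5 of the 40 members were called and 2-fold or more apart, where 14.5% of all genes were. Under quantile normalisation the median against MPP was -0.082, and under cyclic loess -0.11. The number higher than in MPP was 1 without MPP replicate 2 and 1 without MPP replicate 3. It was 2 without PreMegE replicate 2 and 1 without PreMegE replicate 4. Calls over all genes, either way, also fell, from 6004 to 4972, 4861, 5312 and 5424 without these arrays in turn. The beta-actin excess given above was higher in PreMegE than in HSC and MPP, whereas for Gapdh the PreMegE arrays overlapped both, and the part of RNA quality was not tested.

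CD4+ T cells against HSC gave the most calls, 14 higher and 9 lower, or 57.5% of members, where 37.8% of all genes were called (17.0% higher and 20.8% lower). The median difference was 0.26 against -0.06 over all genes. Of the 40 members, 10 were called and 2-fold or more apart, where 23.2% of all genes were. The number lower was 5 without HSC replicate 1 and 5 without CD4+ T cell replicate 2. Against MPP, 8 were higher and 6 lower, or 35.0%, which is near the 35.5% of all genes (15.5% higher and 20.0% lower). The median was -0.02 against -0.02, and 6 of the 40 members were called and 2-fold or more apart, where 22.1% of all genes were. Against PreMegE, 15 were higher and 4 lower, or 47.5%, beside 33.1% of all genes (16.3% higher and 16.8% lower), with a median of 0.24 against -0.06. Here 6 of the 40 members were called and 2-fold or more apart, where 19.4% of all genes were. Under quantile normalisation the medians against HSC and PreMegE were both 0.15. The number higher than in PreMegE was 10 without CD4+ T cell replicate 2. The B cell markers, Klrd1, Alas2 and the lower excess of both 3′ control probe sets given above also set CD4+ T cells apart. Of the same marker lists, Ncr1 was not raised and Hemgn was lower there. The part of these differences was not tested. The comparisons share arrays and are not independent of one another.

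**Figure D2:**
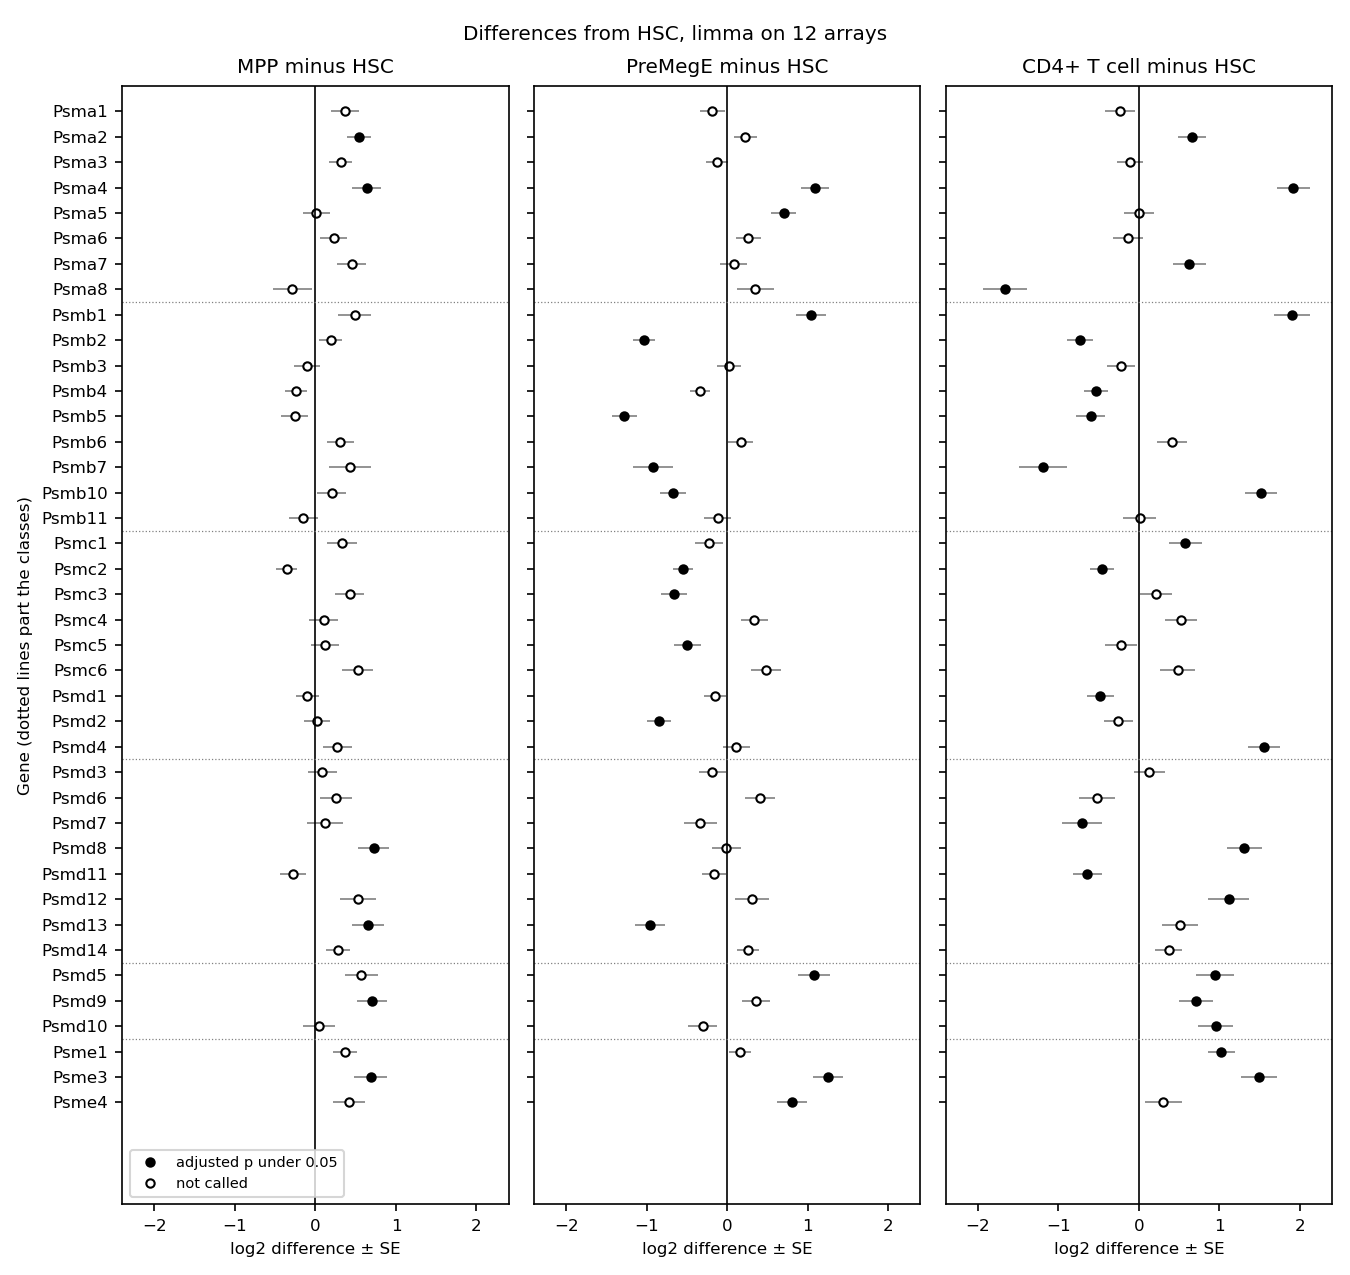
Points are log2 differences from HSC for the 40 genes in MPP, PreMegE and CD4+ T cells (3 panels), with bars for the standard error and filled points for an adjusted p under 0.05. Differences in MPP lie mostly just right of 0, whereas those in PreMegE and CD4+ T cells spread to both sides of 0.

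Taking populations in pairs, MPP arrays were all above the HSC arrays for 15 members and all below for 3, where 15.2% and 14.7% of all genes were so. PreMegE arrays were all above HSC for 6 and all below for 9 (13.2% and 18.4% of all genes), and all above MPP for 4 and all below for 15 (17.5% and 21.9%). CD4+ T cell arrays were all above HSC for 19 and all below for 11 (23.7% and 30.6%), above MPP for 13 and below for 14 (26.8% and 31.0%), and above PreMegE for 19 and below for 7 (20.5% and 23.4%). In some members a whole population lay apart from every other array. CD4+ T cell arrays were above all others for 9 members, Psma4, Psmb1, Psmb10, Psmc1, Psmd4, Psmd8, Psmd12, Psmd10 and Psme1, or 9 of 40 where 12.9% of all genes did so. They were below all others for Psma8, Psmb4 and Psmd6, where 14.5% of all genes did so. PreMegE arrays were below all others for 7, Psmb2, Psmb5, Psmb10, Psmc2, Psmc3, Psmd2 and Psmd13, where 5.75% of all genes did so, and above for Psma5 and Psme4 (4.85%). HSC arrays were below all others for Psma4, Psmb1, Psmd5 and Psme3 (2.39% of all genes) and above for Psmb4 and Psmc2 (3.83%). On the next brightest probe set, HSC means were not the highest for Psmb4 and Psmc2. Means in HSC and MPP were 10.26 and 10.86 for Psmb4, and 10.46 and 10.72 for Psmc2. In limma over all probe sets, MPP minus HSC was 0.60 for Psmb4 (adjusted p = 0.0164) and 0.26 for Psmc2 (adjusted p = 0.438). HSC means were also not the lowest on the next brightest probe set for Psmb1 and Psme3. Psma4 and Psmd5 had no other probe set. MPP arrays were above all others for Psma3, Psmb7 and Psmc3 (5.61%) and below for 0 (2.97%).

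Of 8 alpha genes, 2 were higher in MPP than in HSC and 2 higher in PreMegE, while CD4+ T cells had 3 higher and 1 lower. Beside these and the class counts below, 6.38% of all genes were higher and 4.93% lower in MPP than in HSC. The shares were 11.9% and 17.0% in PreMegE, and 17.0% and 20.8% in CD4+ T cells. Among the alpha subunits of the core, Psma4 had separate levels in all 4 populations. Its log2 intensity was 7.81, 7.54 and 8.0 in HSC, 8.47, 8.32 and 8.48 in MPP, 8.61, 8.77, 8.86 and 9.26 in PreMegE, and 9.56 and 9.86 in CD4+ T cells. No group overlapped another, and HSC was lowest and CD4+ T cells highest. Psma4 was 1.92 ± 0.20 (log2 difference ± SE, adjusted p = 1.36e-06) higher in CD4+ T cells than in HSC, and PreMegE exceeded HSC by 1.09 ± 0.17 (adjusted p = 0.000145). The step from MPP to PreMegE, 0.45 ± 0.17 (adjusted p = 0.0517), did not pass, and the step from HSC to MPP, 0.64 ± 0.18 (adjusted p = 0.0325), was lost without any 1 of HSC replicates 1 and 2 and MPP replicates 1 to 3 (0.52 to 0.69, largest adjusted p = 0.145). The step from PreMegE to CD4+ T cells, 0.83 ± 0.19 (adjusted p = 0.00278), was lost without CD4+ T cell replicate 2 (0.68, adjusted p = 0.0542).

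Psma5 set PreMegE apart. Psma5 was at 10.58, 10.18 and 10.65 in HSC, 10.66, 10.25 and 10.54 in MPP, 11.17, 11.30, 11.06 and 11.16 in PreMegE, and 10.32 and 10.63 in CD4+ T cells. The 4 PreMegE arrays were above every other array, while the other populations overlapped. PreMegE exceeded HSC by 0.70 ± 0.16 (adjusted p = 0.00291) and MPP by 0.69 ± 0.16 (adjusted p = 0.00275). CD4+ T cells differed from PreMegE by -0.70 ± 0.18 (adjusted p = 0.00581), a call lost without CD4+ T cell replicate 1 (-0.54, adjusted p = 0.0934), on the next brightest probe set (-0.24, adjusted p = 0.317) and averaged over all its probe sets (-0.35, adjusted p = 0.0797). With HSC replicate 1 as the only HSC array, PreMegE exceeded HSC by 0.59 (adjusted p = 0.0794).

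Psma8 encodes the alpha subunit that takes the place of Psma7 in the core particle of male germ cells. Log2 intensities of Psma8 were 4.95, 5.30 and 5.19 in HSC, 5.08, 4.68 and 4.81 in MPP, 5.08, 5.03, 5.91 and 5.97 in PreMegE, and 3.63 and 3.34 in CD4+ T cells. Both CD4+ T cell arrays were below all others, close to the lower quartile over genes of 3.27, and PreMegE replicates 3 and 4 were above the rest. The difference of CD4+ T cells from HSC was -1.66 ± 0.27 (adjusted p = 0.000124) and from PreMegE -2.01 ± 0.26 (adjusted p = 1.16e-05). So close to the lower quartile these are differences between measured intensities, and their exact size cannot be read. PreMegE exceeded MPP by 0.64 ± 0.23 (adjusted p = 0.041) with overlapping arrays, and this call ended without MPP replicate 2 (0.55), MPP replicate 3 (0.62), PreMegE replicate 3 (0.50) or PreMegE replicate 4 (0.48), with adjusted p of 0.101 to 0.152. The other alpha genes spanned less. On their brightest probe sets, Psma1, Psma2, Psma3, Psma6 and Psma7 had ranges of group means between 0.39 and 0.66. Psma6 passed in none of the 6 comparisons there, whereas its next brightest gave 0.65 in PreMegE relative to HSC (adjusted p = 0.032 in a fit over all probe sets). For Psma7 in CD4+ T cells relative to HSC, the brightest gave 0.63 (adjusted p = 0.0227). The next brightest gave 1.15 (adjusted p = 4.32e-05 in the fit over all probe sets), so Psma7 spanned more on it.

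The standard catalytic subunits of the core went separate ways. Of the 9 beta genes, 1 was higher and 4 lower in PreMegE than in HSC, 2 higher and 4 lower in CD4+ T cells, and no call was made in MPP. Psmb5 carries the chymotrypsin-like site, Psmb7 the trypsin-like site and Psmb6 the caspase-like site. The arrays had Psmb5 at 11.15, 10.89 and 10.59 in HSC, 10.54, 10.57 and 10.73 in MPP, 9.60, 9.59, 9.52 and 9.67 in PreMegE, and 10.46 and 10.09 in CD4+ T cells. All 4 PreMegE arrays were below every other array, and both CD4+ T cell arrays were below all HSC and MPP arrays. Psmb5 was -1.28 ± 0.15 (adjusted p = 1.28e-05) in PreMegE relative to HSC, 2.43-fold lower, and -1.02 ± 0.15 (adjusted p = 8.09e-05) relative to MPP. CD4+ T cells were -0.60 ± 0.18 (adjusted p = 0.0166) relative to HSC, a call lost without HSC replicate 1 (-0.46, adjusted p = 0.0756) or CD4+ T cell replicate 2 (-0.41, adjusted p = 0.196). They were 0.68 ± 0.17 (adjusted p = 0.00586) relative to PreMegE, lost without CD4+ T cell replicate 1 (0.50, adjusted p = 0.11).

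Psmb7 measured 9.63, 9.34 and 9.03 in HSC, 9.66, 9.90 and 9.73 in MPP, 8.23, 8.77, 7.69 and 8.98 in PreMegE, and 8.11 and 8.17 in CD4+ T cells. MPP arrays were the highest, PreMegE arrays scattered over more than a log2 unit, and all PreMegE and CD4+ T cell arrays were below all HSC arrays. Psmb7 differed from HSC by -0.92 ± 0.25 (adjusted p = 0.0101) in PreMegE and -1.19 ± 0.29 (adjusted p = 0.00406) in CD4+ T cells. The former was lost without HSC replicate 1 (-0.77, adjusted p = 0.0606). Against MPP the differences were -1.35 ± 0.25 (adjusted p = 0.000464) and -1.62 ± 0.29 (adjusted p = 0.000355).

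Psmb6 was at 9.75, 9.52 and 9.30 in HSC, 9.84, 9.70 and 9.95 in MPP, 9.78, 9.88, 9.41 and 9.71 in PreMegE, and 9.98 and 9.89 in CD4+ T cells. The populations overlapped for the most part, and Psmb6 passed in none of the 6 comparisons. Its largest difference was 0.41 ± 0.18 (adjusted p = 0.0938), in CD4+ T cells relative to HSC.

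Psmb10, the interferon-inducible subunit that takes the place of Psmb7 in the immunoproteasome, was highest in CD4+ T cells and lowest in PreMegE. Log2 intensities of Psmb10 were 9.31, 8.86 and 8.61 in HSC, 9.16, 9.02 and 9.20 in MPP, 8.31, 8.16, 8.11 and 8.46 in PreMegE, and 10.41 and 10.48 in CD4+ T cells. The CD4+ T cell arrays were above and the PreMegE arrays below every other array, while HSC and MPP overlapped. CD4+ T cells exceeded PreMegE by 2.18 ± 0.19 (adjusted p = 1.23e-07), or 4.54-fold, HSC by 1.51 ± 0.20 (adjusted p = 1.26e-05) and MPP by 1.32 ± 0.20 (adjusted p = 5.69e-05). PreMegE differed by -0.67 ± 0.16 (adjusted p = 0.00557) from HSC and -0.87 ± 0.16 (adjusted p = 0.000624) from MPP. These 5 calls were kept under every alternative run, though no next brightest probe set could be tried. The difference of MPP from HSC, 0.20 ± 0.18 (adjusted p = 0.587), did not pass.

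The difference between Psmb10 and Psmb7 on the same array does not depend on the scaling of the array, and only its change between populations can be read, since probe sets differ in brightness. Psmb10 minus Psmb7 was -0.32, -0.48 and -0.42 log2 units in HSC, -0.50, -0.87 and -0.53 in MPP, 0.09, -0.61, 0.42 and -0.52 in PreMegE, and 2.3 and 2.31 in CD4+ T cells. Both CD4+ T cell arrays were far above the other 10, and the PreMegE arrays straddled those of HSC and MPP. The mean was 2.71 higher in CD4+ T cells than in HSC and 0.25 higher in PreMegE than in HSC. Psmb10 minus Psmb5 was -1.95 ± 0.10 (SD, n = 3) in HSC, -1.49 ± 0.09 (n = 3) in MPP, -1.34 ± 0.10 (n = 4) in PreMegE and 0.17 ± 0.31 (n = 2) in CD4+ T cells. By this measure HSC arrays were the lowest and CD4+ T cell arrays the highest.

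**Figure D3:**
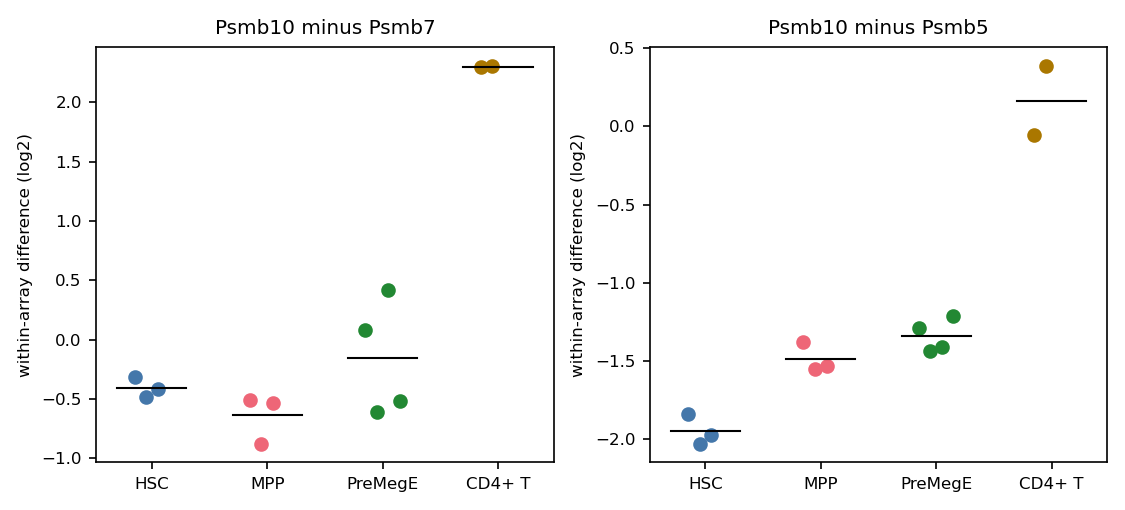
Points are single arrays and lines are group means of the within-array log2 difference of Psmb10 from Psmb7 (left) and from Psmb5 (right). Both CD4+ T cell arrays lie above the other 10 in either panel, at 2.3 and 2.31 on the left.

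**Figure D4:**
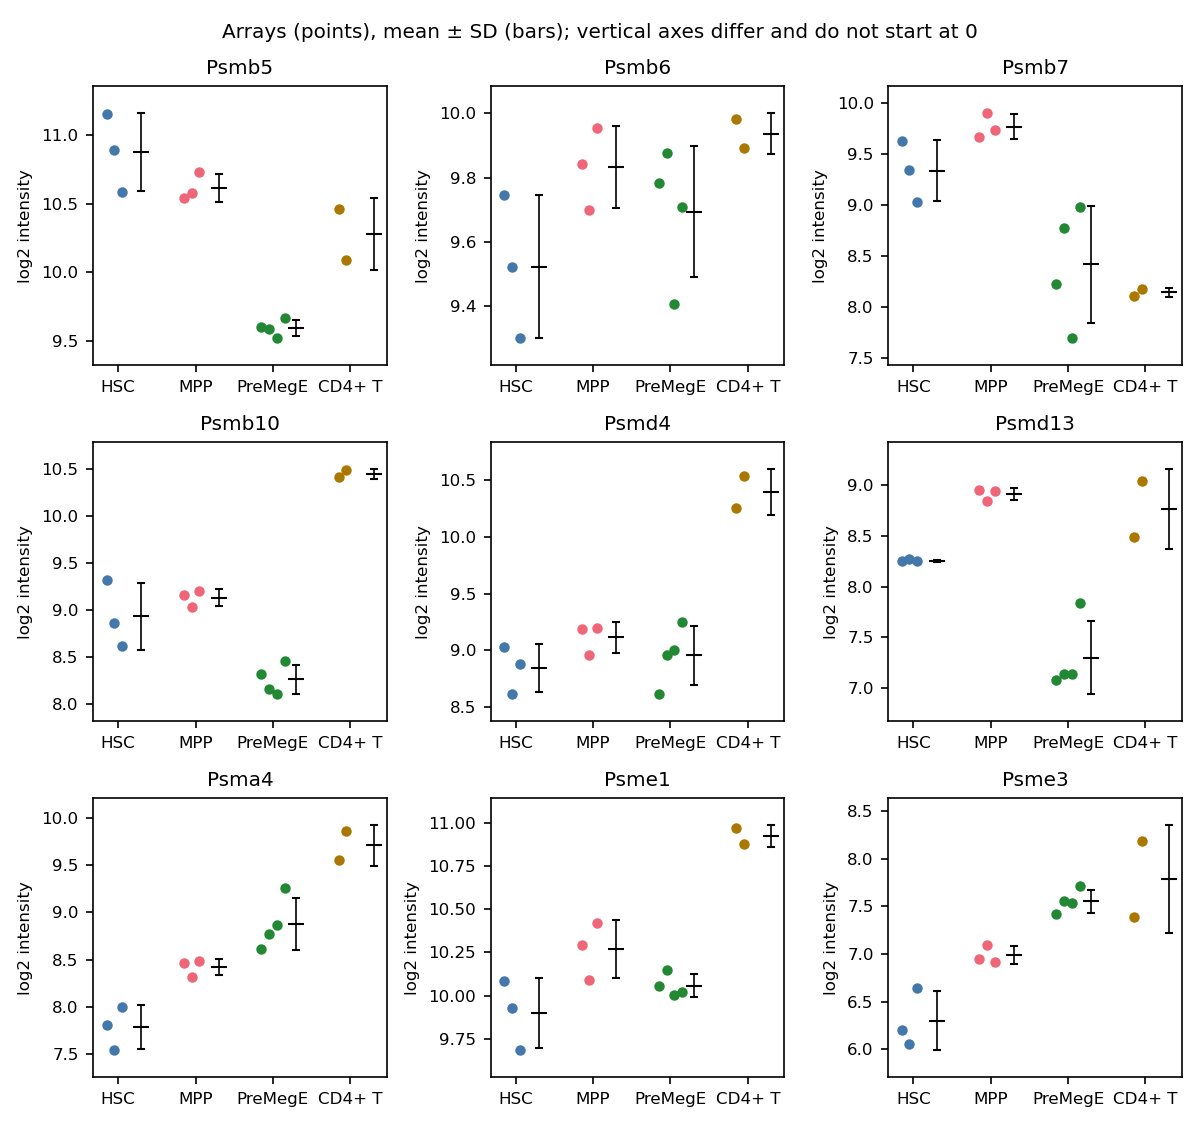
Log2 intensity of 9 members on each array (points) with the mean and SD of each population beside them; vertical axes differ between panels and do not start at 0. PreMegE is lowest for Psmb5, Psmb10 and Psmd13, CD4+ T cells are highest for Psmb10, Psmd4, Psma4 and Psme1, and Psmb6 overlaps.

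Other beta genes included Psmb1 and Psmb2, structural subunits of the inner rings, and Psmb11, the catalytic subunit of thymic epithelial cells. The arrays had Psmb1 at 8.38, 8.20 and 8.52 in HSC, 9.01, 8.59 and 8.96 in MPP, 9.44, 9.53, 8.90 and 9.77 in PreMegE, and 10.24 and 10.30 in CD4+ T cells. HSC arrays were lowest and CD4+ T cell arrays highest, and PreMegE replicate 3 lay among the MPP arrays. CD4+ T cells exceeded HSC by 1.90 ± 0.23 (adjusted p = 4.79e-06), whereas the gene's next brightest probe set, with means of 4.93 and 5.0 in these populations, gave -0.063. PreMegE exceeded HSC by 1.04 ± 0.19 (adjusted p = 0.000542), with 0.38 on the next brightest probe set. PreMegE exceeded MPP by 0.55 ± 0.19 (adjusted p = 0.0333), a call that depended on MPP replicates 2 (0.42 without it) and 3 (0.61) and on PreMegE replicates 1 (0.54), 2 (0.51) and 4 (0.44), with adjusted p of 0.0572 to 0.17.

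Psmb2 measured 9.25, 9.06 and 8.89 in HSC, 9.33, 9.35 and 9.07 in MPP, 7.99, 7.92, 8.12 and 8.07 in PreMegE, and 8.30 and 8.35 in CD4+ T cells. HSC and MPP arrays overlapped and were above all others, and PreMegE arrays were below all others. Psmb2 differed from HSC by -1.04 ± 0.14 (adjusted p = 3.19e-05) in PreMegE and -0.73 ± 0.16 (adjusted p = 0.00188) in CD4+ T cells. Psmb11 was at 3.09, 3.67 and 2.90 in HSC, 3.10, 2.99 and 3.12 in MPP, 3.08, 3.25, 2.95 and 3.13 in PreMegE, and 3.18 and 3.28 in CD4+ T cells. These values lay around the lower quartiles over genes of 3.27 to 3.35, Psmb11 passed in no comparison, and its order among populations cannot be read. Psmb4 was -0.54 ± 0.15 (adjusted p = 0.00998) in CD4+ T cells relative to HSC on its brightest probe set, which was lost without CD4+ T cell replicate 2 (-0.53, adjusted p = 0.0506), and 1.07 on its next brightest, so its direction is not settled. Psmb3 passed in no comparison on its brightest probe set, whereas the next brightest gave -1.23 in PreMegE relative to HSC (adjusted p = 0.00111 in a fit over all probe sets).

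In the base, 4 of 9 genes were lower in PreMegE than in HSC, and 2 were higher and 2 lower in CD4+ T cells. The ubiquitin receptor gene Psmd4 was set apart in CD4+ T cells. Log2 intensities of Psmd4 were 9.03, 8.62 and 8.89 in HSC, 9.19, 8.96 and 9.20 in MPP, 8.61, 8.96, 9.0 and 9.25 in PreMegE, and 10.25 and 10.54 in CD4+ T cells. Both CD4+ T cell arrays were above all others, and the marrow populations overlapped. The differences were 1.55 ± 0.20 (adjusted p = 1.18e-05) from HSC, 1.28 ± 0.20 (adjusted p = 8.82e-05) from MPP and 1.44 ± 0.19 (adjusted p = 1.6e-05) from PreMegE, and all were kept under every alternative run. The next brightest probe set of Psmd4 gave 1.70 in CD4+ T cells relative to HSC.

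Several ATPase and scaffold genes of the base were lowest in PreMegE. Psmc3 ranged from 8.89 to 9.50 in PreMegE, from 9.65 to 10.09 in HSC and from 10.29 to 10.42 in MPP, so these 3 populations did not overlap. Psmc3 was -0.66 ± 0.17 (adjusted p = 0.00648) in PreMegE relative to HSC and -1.08 ± 0.17 (adjusted p = 9.08e-05) relative to MPP. Psmd2, a scaffold subunit, ranged from 9.20 to 9.67 in PreMegE and from 9.98 to 10.46 on the other 8 arrays, and was -0.85 ± 0.15 (adjusted p = 0.000404) relative to HSC. Its next brightest probe set, near the lower quartile over genes with means of 2.84 to 3.24, gave -0.40 (adjusted p = 0.0837). Psmc2 was -0.55 ± 0.12 (adjusted p = 0.00311) relative to HSC, with PreMegE arrays at 11.27 to 11.37 and HSC arrays at 11.71 to 11.97. Psmc5 was -0.49 ± 0.17 (adjusted p = 0.0357), a call with overlapping arrays. It depended on HSC replicates 1 (-0.39 without it) and 2 (-0.52) and PreMegE replicates 1 (-0.43), 2 (-0.46) and 3 (-0.45), with adjusted p of 0.0661 to 0.167. Psmc4 and Psmc6 passed in no comparison on their brightest probe sets. In a fit over all probe sets their next brightest gave, in CD4+ T cells relative to HSC, 1.67 (adjusted p = 5.34e-06) for Psmc4 and -1.26 (adjusted p = 0.00021) for Psmc6.

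In the lid, 2 of 8 genes were higher in MPP than in HSC, 1 was lower in PreMegE, and 2 were higher and 2 lower in CD4+ T cells. Psmd13 separated the 3 marrow populations. The arrays had Psmd13 at 8.25, 8.27 and 8.25 in HSC, 8.95, 8.84 and 8.94 in MPP, 7.08, 7.14, 7.14 and 7.83 in PreMegE, and 8.48 and 9.04 in CD4+ T cells. HSC, MPP and PreMegE did not overlap, PreMegE replicate 4 was above the other PreMegE arrays, and the CD4+ T cell arrays lay on either side of MPP. Psmd13 was -1.61 ± 0.19 (adjusted p = 6.02e-06) in PreMegE relative to MPP, 3.06-fold lower, and -0.96 ± 0.19 (adjusted p = 0.00104) relative to HSC. The next brightest probe set gave -1.51 and -1.04. CD4+ T cells exceeded PreMegE by 1.46 ± 0.21 (adjusted p = 4.17e-05). A dimmer probe set, with means of 4.02 to 5.33, went the other way in the limma fit over all probe sets. It gave 0.96 (adjusted p = 0.00871) in PreMegE relative to MPP and 0.16 (adjusted p = 0.727) relative to HSC. For CD4+ T cells relative to PreMegE it gave -1.32 (adjusted p = 0.00224). The dimmest had the signs of the brightest, at -1.20, -0.66 and 0.55 in turn. MPP exceeded HSC by 0.66 ± 0.20 (adjusted p = 0.0453), which was lost without any single HSC or MPP array or PreMegE replicate 2 (0.64 to 0.69, adjusted p of 0.0568 to 0.135). It was also lost on the next brightest probe set (0.47, adjusted p = 0.196), with the mean of all probe sets (0.21, adjusted p = 0.498) and under quantile (0.55) and cyclic loess (0.54) normalisation.

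Psmd8 measured 7.96, 7.47 and 7.86 in HSC, 8.51, 8.34 and 8.62 in MPP, 7.35, 7.66, 8.08 and 7.92 in PreMegE, and 9.11 and 9.05 in CD4+ T cells. For Psmd8, another lid subunit, HSC and PreMegE overlapped, MPP was above both and CD4+ T cells were above all. CD4+ T cells exceeded HSC by 1.31 ± 0.21 (adjusted p = 0.000126) and PreMegE by 1.32 ± 0.20 (adjusted p = 7.65e-05), and PreMegE differed from MPP by -0.74 ± 0.18 (adjusted p = 0.00454). MPP exceeded HSC by 0.72 ± 0.19 (adjusted p = 0.0226), which was lost without HSC replicate 2 (0.58), MPP replicate 1 (0.71) or MPP replicate 3 (0.66), with adjusted p of 0.0737 to 0.11. Psmd6 was at 10.06, 9.95 and 10.15 in HSC, 10.48, 10.38 and 10.08 in MPP, 10.68, 10.66, 10.09 and 10.42 in PreMegE, and 9.88 and 9.19 in CD4+ T cells. On the brightest probe set of Psmd6 both CD4+ T cell arrays were below all others. CD4+ T cells were -0.93 ± 0.21 (adjusted p = 0.00273) relative to PreMegE, lost without CD4+ T cell replicate 2 (-0.59, adjusted p = 0.097). The next brightest probe set of Psmd6 put PreMegE 1.73 above HSC, where the brightest gave 0.41 ± 0.19 (adjusted p = 0.129). It put CD4+ T cells 0.89 above HSC (adjusted p = 0.0487 in a fit over all probe sets), where the brightest gave -0.52 (adjusted p = 0.0854). The direction of Psmd6 in CD4+ T cells relative to HSC is therefore not settled. Psmd3 and the deubiquitinase gene Psmd14 passed in no comparison.

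The chaperones that assemble the base, Psmd5, Psmd9 and Psmd10, were all higher in CD4+ T cells than in HSC. Log2 intensities of Psmd5 were 7.83, 7.44 and 8.0 in HSC, 8.34, 8.11 and 8.52 in MPP, 8.39, 8.80, 8.93 and 9.22 in PreMegE, and 8.58 and 8.81 in CD4+ T cells. HSC arrays were below every other array, and the other populations overlapped. Psmd5 exceeded HSC by 1.08 ± 0.20 (adjusted p = 0.000546) in PreMegE and by 0.94 ± 0.23 (adjusted p = 0.00411) in CD4+ T cells. Both calls were kept under every alternative run, but the gene has 1 probe set, so no next brightest could be tried. The arrays had Psmd10 at 6.75, 6.86 and 6.21 in HSC, 6.38, 6.86 and 6.72 in MPP, 6.27, 6.10, 6.24 and 6.61 in PreMegE, and 7.60 and 7.53 in CD4+ T cells. Both CD4+ T cell arrays were above all others, with a difference from HSC of 0.96 ± 0.22 (adjusted p = 0.00216). Psmd9 measured 5.66, 5.41 and 5.45 in HSC, 5.97, 6.18 and 6.47 in MPP, 5.50, 6.01, 5.83 and 6.11 in PreMegE, and 6.42 and 6.02 in CD4+ T cells. MPP and CD4+ T cell arrays were above all HSC arrays, whereas PreMegE overlapped HSC. Psmd9 exceeded HSC by 0.70 ± 0.19 (adjusted p = 0.0241) in MPP, lost without HSC replicate 2 (0.65) or 3 (0.67) or MPP replicate 2 (0.72) or 3 (0.57), with adjusted p of 0.064 to 0.134, and at 0.067 (adjusted p = 0.883) on the next brightest probe set. In CD4+ T cells it exceeded HSC by 0.71 ± 0.21 (adjusted p = 0.0131), lost without CD4+ T cell replicate 1 (0.52, adjusted p = 0.156) and at -0.018 on the next brightest probe set.

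The activators open the gate of the core without ATP. Psme1 forms the interferon-inducible activator of the cytosol together with Psme2. Psme1 was at 10.09, 9.93 and 9.68 in HSC, 10.29, 10.09 and 10.42 in MPP, 10.05, 10.15, 10.00 and 10.02 in PreMegE, and 10.97 and 10.88 in CD4+ T cells. Both CD4+ T cell arrays were above all others, at 1.02 ± 0.17 (adjusted p = 0.000123) from HSC, 0.65 ± 0.17 (adjusted p = 0.00526) from MPP and 0.87 ± 0.16 (adjusted p = 0.000394) from PreMegE. These 3 calls were kept under every alternative run, though no next brightest probe set could be tried. Psme1 did not pass between marrow populations.

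Psme3 encodes the nuclear activator. Log2 intensities of Psme3 were 6.20, 6.05 and 6.65 in HSC, 6.95, 7.09 and 6.91 in MPP, 7.42, 7.55, 7.54 and 7.71 in PreMegE, and 7.39 and 8.19 in CD4+ T cells. HSC, MPP and PreMegE arrays did not overlap and stood in that order, and the CD4+ T cell arrays were on either side of PreMegE. PreMegE exceeded HSC by 1.26 ± 0.19 (adjusted p = 0.000109), with 0.96 on the next brightest probe set. PreMegE exceeded MPP by 0.57 ± 0.19 (adjusted p = 0.0299), lost without any 1 of the MPP arrays or PreMegE replicates 2 or 4 (0.52 to 0.62, adjusted p of 0.0522 to 0.1). MPP exceeded HSC by 0.69 ± 0.20 (adjusted p = 0.0392), lost without HSC replicate 1 or 2, any MPP array or PreMegE replicate 2 (0.56 to 0.72, adjusted p of 0.0545 to 0.164). On the next brightest probe set that difference was 0.29 (adjusted p = 0.315), and averaged over all its probe sets 0.40 (adjusted p = 0.0733). For CD4+ T cells relative to HSC the brightest probe set gave 1.49 ± 0.23 (adjusted p = 6.18e-05) and the next brightest -0.97 (adjusted p = 0.000436), so the direction of Psme3 in CD4+ T cells is not settled. Psme1 minus Psme3 within an array was 3.60 ± 0.49 (SD, n = 3) in HSC and 2.50 ± 0.15 (n = 4) in PreMegE.

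Psme4 encodes the activator linked to acetylated histones. The arrays had Psme4 at 8.32, 8.12 and 9.05 in HSC, 8.79, 8.91 and 9.04 in MPP, 9.10, 9.27, 9.39 and 9.45 in PreMegE, and 8.80 and 8.80 in CD4+ T cells. All PreMegE arrays were above every other array, and HSC replicate 3 was above the other HSC arrays. PreMegE exceeded HSC by 0.81 ± 0.19 (adjusted p = 0.00418), and the next brightest probe set gave 0.55 (adjusted p = 0.155).

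Probe sets of one gene did not always move together. Of 40 members 21 had more than 1 probe set, and these were tested in a limma fit over all probe sets with 1 symbol. In PreMegE relative to HSC, 7 of these 21 were called on the brightest probe set, of which 4 were also called, with the same sign, on the next brightest, and 0 with the opposite sign. In CD4+ T cells relative to HSC, 10 were called, 3 of them with the same sign on the next brightest probe set and 2, Psmb4 and Psme3, with the opposite sign. The other 19 members, among them Psmb5, Psmb6, Psmb7, Psmb10, Psma4, Psmd5 and Psme1, had 1 probe set each, so this check could not be made for them.

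**Figure D5:**
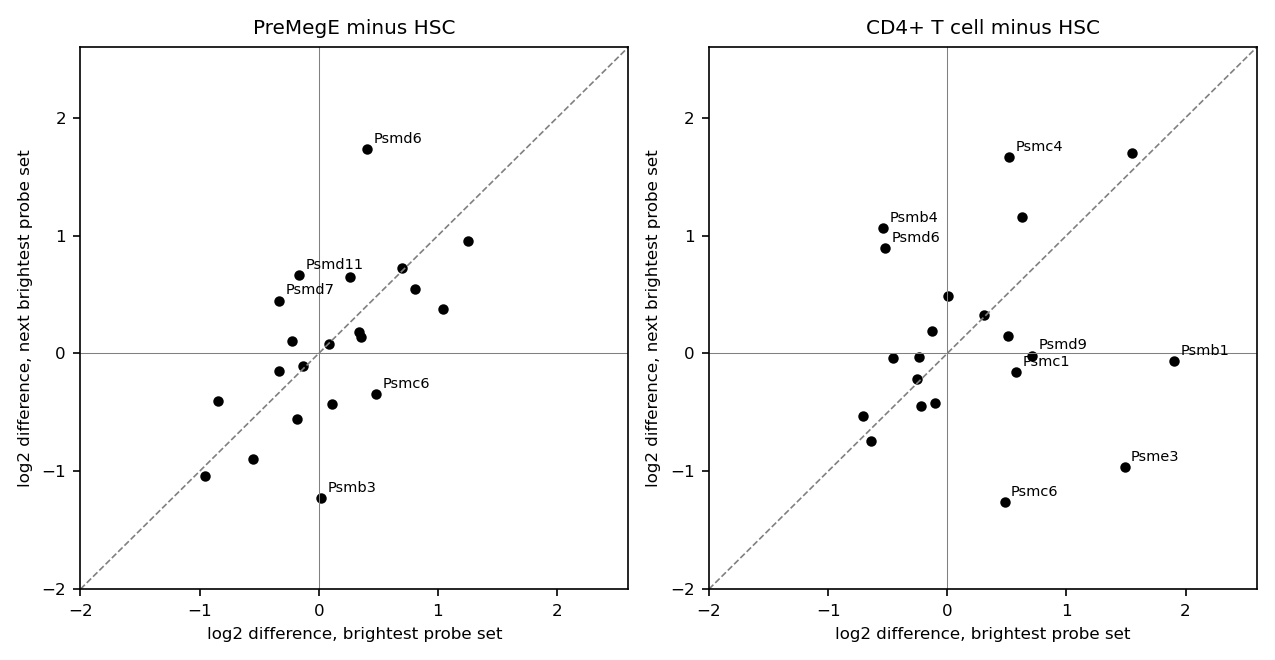
Each point is 1 of the 21 members with more than 1 probe set, with the log2 difference from HSC on the brightest probe set (horizontal) against the next brightest (vertical), for PreMegE (left) and CD4+ T cells (right); the dashed line marks equal values, and members more than 0.7 apart are named. Psmb4 and Psme3 lie in opposite quadrants for CD4+ T cells.

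Genes that assemble or regulate the proteasome changed in both directions. For this and the lists below, 6.38% of all genes were called higher and 4.93% lower in MPP than in HSC. At an unadjusted p under 0.05 in limma these shares were 12.5% and 10.1%. Called higher and lower than in HSC were 11.9% and 17.0% of all genes in PreMegE, and 17.0% and 20.8% in CD4+ T cells. Of 14 measured, 0 were higher and 1 lower in MPP than in HSC (2 and 1 at an unadjusted p under 0.05 in limma), 3 higher and 4 lower in PreMegE than in HSC, and 3 higher and 5 lower in CD4+ T cells than in HSC. Ecpas, a scaffold that binds core and regulatory particle, had a mean of 9.81 in HSC, 8.47 in PreMegE and 6.41 in CD4+ T cells, which were -1.33 ± 0.24 (adjusted p = 0.000479) and -3.40 ± 0.28 (adjusted p = 1.03e-07) from HSC. Usp14, a deubiquitinase that docks on the base, was -1.65 ± 0.21 (adjusted p = 1.2e-05) in CD4+ T cells and, as the gene lower in MPP, -0.76 ± 0.19 (adjusted p = 0.0167) there. Ube3c, a ubiquitin ligase found at the proteasome, was -0.99 ± 0.17 (adjusted p = 0.000412) in PreMegE.

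Of 9 genes listed for the transcription of proteasome subunits, 2 were higher and 1 lower in MPP than in HSC, 1 higher and 3 lower in PreMegE, and 0 higher and 5 lower in CD4+ T cells (1 and 5 at an unadjusted p under 0.05 in limma). Maff and Mafk, small Maf partners of the Nfe2l factors, exceeded HSC by 2.45 ± 0.30 (adjusted p = 6.24e-05) and 1.16 ± 0.19 (adjusted p = 0.00078) in MPP. Nfe2l2, the factor of the antioxidant response, was 0.79 ± 0.20 (adjusted p = 0.00733) in PreMegE, and Bach1, a repressor at the same sites, -0.61 ± 0.18 (adjusted p = 0.02) there and -2.41 ± 0.22 (adjusted p = 2.69e-07) in CD4+ T cells. Mafg, another small Maf, was -1.32 ± 0.17 (adjusted p = 1.08e-05) in CD4+ T cells.

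Of 8 measured genes of interferon-linked antigen processing, 2 were higher and 0 lower in MPP than in HSC (the same numbers at an unadjusted p under 0.05 in limma), 1 higher and 5 lower in PreMegE, and 4 higher and 3 lower in CD4+ T cells. Irf1, a factor that switches on immune proteasome genes, was 0.75 ± 0.15 (adjusted p = 0.0031) in MPP relative to HSC and -0.99 ± 0.14 (adjusted p = 5.3e-05) in PreMegE. Its value in CD4+ T cells, 1.11 ± 0.16 (adjusted p = 5.19e-05), was picked out after the values were seen. Erap1, a peptidase that trims peptides for display, was 0.63 ± 0.18 (adjusted p = 0.034) in MPP. Canx, the chaperone calnexin of the endoplasmic reticulum, was -1.21 ± 0.17 (adjusted p = 6.13e-05) in PreMegE and -2.0 ± 0.20 (adjusted p = 9.75e-07) in CD4+ T cells, and Calr, calreticulin, -1.27 ± 0.20 (adjusted p = 9.29e-05) in the latter.

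Of 9 measured shuttle and unfolding genes, 0 passed in MPP relative to HSC (also 0 at an unadjusted p under 0.05 in limma), 3 were higher and 3 lower in PreMegE than in HSC, and 2 higher and 3 lower in CD4+ T cells. Faf1, a cofactor of the unfolding ATPase Vcp, was 1.36 ± 0.16 (adjusted p = 8.88e-06) in PreMegE and 1.49 ± 0.19 (adjusted p = 9.71e-06) in CD4+ T cells. Ubqln4, a shuttle that carries ubiquitinated proteins to the proteasome, was 1.21 ± 0.17 (adjusted p = 7.61e-05) in PreMegE, and Rad23b, another shuttle, -1.37 ± 0.22 (adjusted p = 0.000102) in CD4+ T cells. Of the ubiquitin list only Uba6, an activating enzyme, was measured by a probe set of its own, at -1.10 ± 0.19 (adjusted p = 0.000988) in MPP relative to HSC.

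The cytosolic chaperonin, another ring-shaped machine of protein folding, was listed for comparison. Of its 8 genes 0 passed in MPP relative to HSC (2 higher at an unadjusted p under 0.05 in limma), and 2 were higher and 1 lower than in HSC both in PreMegE and in CD4+ T cells. Cct7 was -0.64 ± 0.13 (adjusted p = 0.00158) and Cct4 0.63 ± 0.16 (adjusted p = 0.0063) in PreMegE, and Cct6a was -1.23 ± 0.17 (adjusted p = 2.34e-05) and Cct8 0.90 ± 0.22 (adjusted p = 0.00342) in CD4+ T cells. The share called among these lists was not compared with that of the proteasome subunits by a test.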

How the data were processed

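Total RNA of 12 sorted samples was hybridised to Affymetrix arrays. The deposited values are intensities on a linear scale, which the authors summarised by RMA per the submitters' processing notes. No version is given, and which arrays were normalised together is not given in the sources used here. Of 45101 probe sets, 64 controls were left out. The 34945 annotated to 1 symbol covered 18193 genes, each read from its brightest probe set by the mean over arrays; 932 carried several symbols and 9160 none. Symbols were looked up in the RefSeq table of GRCm38.p6.

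Log2 intensities were fitted with limma 3.58.1 in R 4.3.3 (lmFit and eBayes, 1 mean per population over all 12 arrays). Each of the 6 comparisons was two-sided and Benjamini-Hochberg adjusted over all genes, with calls at adjusted p under 0.05; the procedure was tested on simulated data. Precision is limited by the 2 to 4 arrays per population.

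Values on every array are given for the catalytic, tissue-restricted, activator and chaperone members and for the 3 largest called rises and falls per comparison; of each related list up to 2 called genes per comparison are named. Members, lists and motifs were chosen with earlier results of these data known. Alternatives covered normalisation, probe set choice, filtering, limma-trend, a replicate block, PreMegE replicates 3 and 4 averaged (the description of replicate 4 names replicate 3), only the 2 groups compared, and leaving out each array. The next brightest probe set and HSC replicate 1 alone for HSC were added after seeing the data.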

Additional observations from a re-analysis of the deposited data

Results flagged for a closer look

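PreMegE replicate 4 lay apart from the other PreMegE arrays in 2 members. For Psmd13, a lid subunit, it stood at 7.83 log2 units with the nearest other array at 7.14, and the gap was 0.917 of the range of the 4 arrays. For Psmc5, an ATPase of the base, it stood at 8.54 with the nearest at 7.98, a gap of 0.861 of the range. In groups of 4, chance marks about 1 in 20 groups in this way, and 40 members were looked at.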

How the results depend on the processing

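Of the 93 calls, 46 were kept under every alternative run for them. The next brightest probe set could be tried for only 43 of the 93, and 17 of these 43 were kept on it. The other calls were of genes with 1 probe set, so they could not be lost in this way. The number of members higher in MPP than in HSC, 6, was 2 under quantile normalisation, 0 with HSC replicate 1 alone standing for HSC and 0 to 6 when single arrays were left out. The number lower, 0, was 1 under quantile normalisation, cyclic loess, without _x_at and _s_at probe sets, limma-trend and the next brightest probe sets. The number higher in PreMegE than in MPP, 4, was 7 under quantile normalisation, cyclic loess and the mean of all probe sets, 2 with PreMegE replicates 3 and 4 averaged, and 1 to 6 when single arrays were left out. Deviations from the population means correlated at r of -0.12 to 0.41 in 15 pairs of same-numbered arrays and -0.45 to 0.44 in 38 others. Within so few arrays such deviations cancel, so this cannot decide whether the numbers pair the samples. With the replicate block the number higher in PreMegE than in MPP was 1, and 88 of 93 calls were kept. The number lower in CD4+ T cells than in HSC, 9, was 3 with only the 2 groups compared, 5 with HSC replicate 1 alone and 5 to 9 when single arrays were left out. The median difference of CD4+ T cells from MPP, -0.02, was 0.13 under cyclic loess.

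Directions turned with the choice of probe set. With the next brightest, CD4+ T cells minus HSC was -0.0629 for Psmb1, 1.07 for Psmb4, -0.16 for Psmc1, -0.0181 for Psmd9 and -0.97 for Psme3; CD4+ T cells minus MPP was 0.16 for Psmd6 and -1.26 for Psme3. CD4+ T cells minus PreMegE was -0.44 for Psmb1 and -0.26 for Psmc1, and PreMegE minus MPP was 0.0655 for Psmc1. With the mean of all probe sets, CD4+ T cells minus HSC was 0.27 for Psmb4, 0.0573 for Psmc2 and 0.0281 for Psmd11, and CD4+ T cells minus MPP was -0.16 for Psme3. Without _x_at and _s_at probe sets, Psmb4 was 1.07 higher in CD4+ T cells than in HSC. A dimmer probe set of Psmd13 gave 0.96 for PreMegE minus MPP and -1.32 for CD4+ T cells minus PreMegE. The cause was not tested. Psmb11 lay near the lower quartile of intensities, which limits what can be seen of it.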
